A study of Rattus norvegicus with 110 samples.

Results

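In the livers of rats given carbon tetrachloride (CCl4) at a low or a high dose, 100 genes were chosen whose mean expression was highest at the low dose. CCl4 is a liver toxicant that hepatocytes around the central vein convert to a reactive radical, which kills them and sets off regeneration, inflammation and, on repeated dosing, fibrosis. A transcript that responds to the chemical or to the repair of the injury usually follows the dose, so a level that is higher at the low dose than at both vehicle and the high dose is a shape that a simple dose order does not give. The 100 genes were taken by that shape, and their means at the 3 doses describe the choice and are no finding.

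RNA was measured in 83 livers and 27 kidneys of male outbred Sprague Dawley rats of the F2 generation, which were 9 to 11 weeks old at the start of treatment. The F2 males received 100% olive oil (vehicle), 8% CCl4 in olive oil (low dose) or 50% CCl4 in olive oil (high dose) by oral gavage at 0.5 ml/kg, 3 times per week, and tissue was taken at 39 days. Each dose was given to 4 cohorts that differed in their ancestors. Cohort A had no treated ancestor, cohort B a treated F1 sire, cohort C a treated F0 grandsire and cohort D both, where a treated ancestor had received 50% CCl4 for 6 weeks and all other F0 and F1 males olive oil. Each of the 12 liver groups held 7 males, apart from the vehicle group of cohort C with 6, so that 27 vehicle, 28 low-dose and 28 high-dose livers were compared. Kidney was measured in the vehicle males alone. The males came from 34 litters and 4 necropsy dates, every cohort and dose was present on every date, and males of 1 litter share parents, so p-values treat related males as independent.

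Expression was measured as CPM, the counts of a gene divided by its library total and put on one common scale for all libraries. For each of the 9259 genes with a low-dose mean of 5 CPM or more, of 31998 identifiers in the table, the score was the smaller of the log2 ratios of the low-dose mean to the vehicle mean and to the high-dose mean. A positive score was present in 816 of these genes (8.81%), the median gene had a score of -0.37, and the 100 highest scores were kept. Library totals ran from 31638559 to 51343589 counts in liver and from 21961746 to 35055218 in kidney, and the median totals of the doses were close to each other (38003195, 39018200 and 38832732 counts for vehicle, low and high dose). The composition of the libraries changed with dose, however, so that the median gene at 5 CPM or more was 0.13 higher at the low dose and 0.49 higher at the high dose than in vehicle on the log2 CPM scale. With library sizes scaled by TMM, which centres the bulk of the genes, low-dose values moved by -0.17 and high-dose values by -0.60 on the log2 scale against vehicle. A positive score on the TMM scale was held by all 100 members, which follows from the choice because their lowest score exceeds the low-dose shift, and their median log2 ratio of low dose to vehicle was 0.17 and of low to high dose 0.86 on that scale. Positive TMM scores were however present in 15.5% of the genes, and only 43 of the 100 members would have been chosen on that scale.

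Most of the members peaked by little. Their scores ran from 1.18 to 0.19, which is a smaller ratio between 2.27-fold and 1.14-fold, with a median of 1.20-fold. A score over 1 was held by 2 members, over 0.5 by 14 and over 0.25 by 57. The 3 members just inside the limit had scores of 0.193, 0.192 and 0.192, and the 3 genes just outside had 0.188, 0.188 and 0.188. In 58 members the high-dose mean was within 0.25 of the vehicle mean on the log2 scale, in 59 it lay below the vehicle mean and in 41 above it. The range of the high-dose ratio to vehicle was wide, from -3.06 to 1.13 on the log2 scale, and the high-dose mean was more than 1 below vehicle in 6 members and more than 1 above it in 1. On the CPM scale the members thus joined genes with a higher mean at the low dose alone to genes of another shape. In those the level was nearly the same in vehicle and at the low dose and much lower at the high dose. This split depends on scale, since the median gene was 0.49 higher at the high dose than in vehicle on the log2 CPM scale. On the TMM scale the members' median log2 ratios were 0.17 for low dose to vehicle and 0.86 for low to high dose. In these bulk samples fewer cells of a type and less RNA per cell cannot be told apart.

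**Figure D1:**
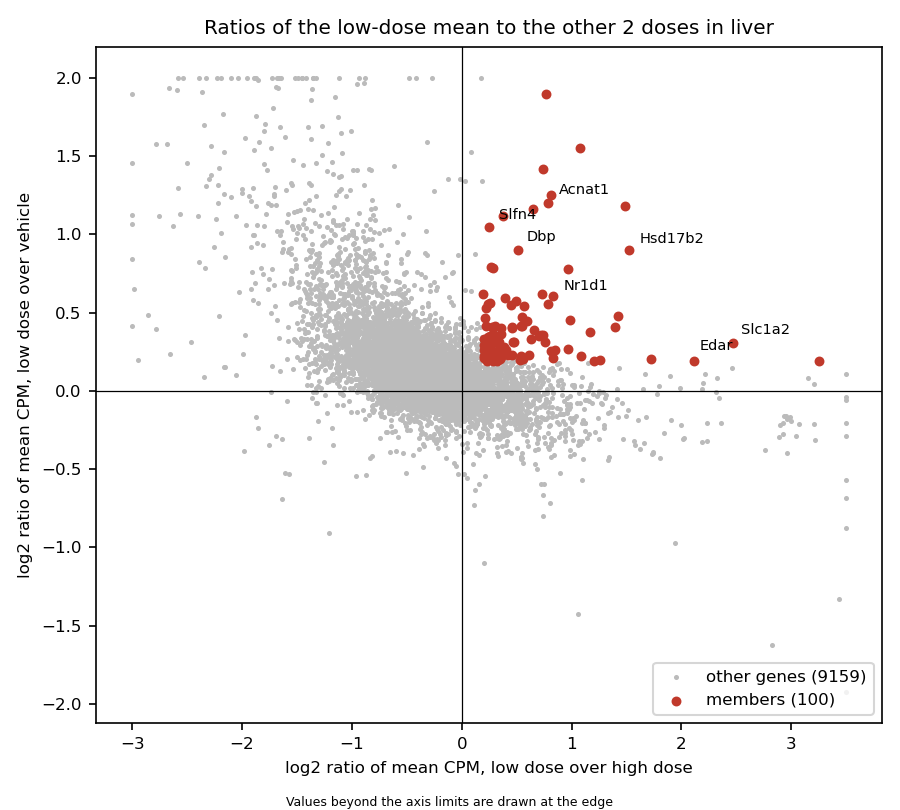
The log2 ratio of the low-dose mean CPM to the high-dose mean (horizontal axis) and to the vehicle mean (vertical axis) in liver, with 1 point per gene at 5 CPM or more. The 100 members (red) fill the upper right corner from a smaller ratio of 0.19 up, the other genes are grey, and Slc1a2 and Edar lie far to the right because their high-dose means were low.

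A gene symbol was known for 23 of the 100 members. The files give Ensembl identifiers without names, and names were taken from a list that the study had selected for an effect of F0 treatment in these samples, which covers 12.98% of the genes at 5 CPM or more. The named members are therefore those on that list, and are not a sample of all members. They were Hsd17b2, Acnat1, Akap5, Nr1d1, Dbp, Tymp, Dll1, Adamts7, Slc1a2, Rb1, Rtp4, Plekhg5, Slfn4, Rusc2, Dipk2a, Helz2, Stard13, Rtn4rl1, Hdhd3, Zfp467, LOC100362216, Avpr1a and Edar, in order of score. Of 28 lists of pathway and cell type genes, none had identifiers for 80% of its genes, and members stood in the clock list and the list of pericentral hepatocyte genes alone. Of the markers that would check the tissue label, 3 of the 13 pericentral hepatocyte genes had an identifier, with Cyp1a2 at 434.7 and Glul at 278.5 mean CPM in vehicle, and 0 of the 12 periportal genes did.

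Nr1d1 and Dbp belong to the circadian clock, in which BMAL1 and CLOCK bind E-box sequences to drive the repressor NR1D1 and the output factor DBP, and both oscillate strongly over the day in liver. Because the time of day of each necropsy was not given in the sources used here, their values stand for an unknown phase. Their promoter windows ran from 250 bases before to 50 after the RefSeq start (GRCr8 build). They are shown 5′ to 3′ on the gene's strand, with CACGTG (E-box) and CCAAT or its reverse complement ATTGG in capitals. Sites outside these windows were not searched. RefSeq gives Nr1d1 a pair of starts, with windows at chr10:84229405-84229704 and chr10:84231763-84232062 on the minus strand, and Dbp 1 start, with its window at chr1:105312006-105312305 on the plus strand.
Nr1d1, window at 84229405: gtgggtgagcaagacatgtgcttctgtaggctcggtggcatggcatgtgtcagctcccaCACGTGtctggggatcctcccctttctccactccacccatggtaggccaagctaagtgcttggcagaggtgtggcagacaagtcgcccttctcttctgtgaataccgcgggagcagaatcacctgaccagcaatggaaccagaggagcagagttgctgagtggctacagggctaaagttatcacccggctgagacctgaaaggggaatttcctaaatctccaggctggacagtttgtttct
Nr1d1, window at 84231763: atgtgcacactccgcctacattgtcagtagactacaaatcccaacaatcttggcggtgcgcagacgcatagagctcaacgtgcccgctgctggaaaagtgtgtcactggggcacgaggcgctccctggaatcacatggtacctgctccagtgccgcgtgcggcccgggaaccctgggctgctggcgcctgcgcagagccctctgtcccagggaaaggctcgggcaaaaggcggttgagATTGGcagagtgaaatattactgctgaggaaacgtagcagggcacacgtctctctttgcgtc
Dbp, window at 105312006: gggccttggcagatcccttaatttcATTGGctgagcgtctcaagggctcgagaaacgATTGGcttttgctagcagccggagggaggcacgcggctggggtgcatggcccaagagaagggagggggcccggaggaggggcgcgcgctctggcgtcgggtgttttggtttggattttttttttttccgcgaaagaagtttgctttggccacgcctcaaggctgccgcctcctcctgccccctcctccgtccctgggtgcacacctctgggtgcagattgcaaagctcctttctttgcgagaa
The E-box stood in 1 of the windows of Nr1d1, 191 bases before the start, and in none of Dbp, and the matches shown do not overlap. Of the 23 members with a symbol, 19 had a window (23 windows in all). The E-box was in 2 of these windows, those of Nr1d1 and Stard13, and in 6.42% of all 33469 windows. CCAAT was in 9 member windows and 37.5% of all. The other letters searched, also on both strands, were TTTGAA (1 member window, 18.3% of all), TTTGGCGC (0, 0.493%), CATGTC (2, 10.7%), TGACTCA (1, 4.63%), TGACNNNGC (3, 12.1%) and GCGTG (10, 29.7%). These are matches of letters in short windows and say nothing of binding.

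Nr1d1 had 3.75 to 86.3 CPM in vehicle livers (median 19.1), 2.42 to 140 at the low dose (median 30.1) and 3.97 to 70.7 at the high dose (median 16.9). The doses overlapped over nearly the whole range, and 18 of 28 low-dose males lay above the vehicle median and 19 above the high-dose median. Dbp ran from 1.17 to 19.9 CPM in vehicle (median 3.01), from 1.27 to 87.9 at the low dose (median 3.47) and from 3.02 to 20.2 at the high dose (median 4.87). Its low-dose mean of 9.52 CPM owed 32.99% to male 1 of cohort D, the score fell to -0.01 without that male, and by medians it was -0.49. The positive score of Dbp thus depended on 1 library. Of the 8 clock genes with an identifier, 3 had a positive score on the CPM scale. These were Nr1d1, Dbp and Nr1d2 (36.5, 41.1 and 38.2 mean CPM in vehicle, low and high dose), and Arntl, Cry1, Cry2, Per1 and Per3 had none. The log2 ratios of low to high dose in the latter ran from -0.29 (Per1) to -0.09 (Per3), beside -0.36 in the median gene. The sign can therefore depend on scale. Arntl and Cry1 also lay slightly below vehicle at the low dose (-0.02 and -0.05).

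Hsd17b2 encodes an enzyme that oxidises estradiol and testosterone to weaker steroids and had the third highest score of the members. It had 65.5 ± 36.2 CPM in vehicle (SD, n = 27), 122 ± 126 at the low dose (n = 28) and 42.7 ± 29.4 at the high dose (n = 28). The low-dose SD exceeded the mean, with values from 30.02 to 620 CPM and a median of 66.7, beside a vehicle range of 24.9 to 198 and median of 57.2. The ratio of medians was thus much smaller than that of means, with a score of 0.22 in place of 0.90. Without low-dose male 1 of cohort D, which held 18.1% of the low-dose total, the score was 0.67. The low-dose mean was highest in cohort D (238 ± 189 CPM, n = 7, against 96.1 ± 52.2 in vehicle) and lowest in cohort A (50.8 ± 10.2 against 47.2 ± 7.01, both n = 7).

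Acnat1 encodes a peroxisomal enzyme that joins fatty acids to taurine, and its positive score depended on 1 library. Low-dose male 9 of cohort D had 114 CPM and 58.9% of the low-dose total. Without it the score was -0.44, and the medians of the 3 doses were 0.35, 0.35 and 1.64 CPM. Its values fell apart into low and high livers. In vehicle 16 livers were under 1 CPM, 11 over 3 and 0 between, and at the low dose 16 were under 1, 12 over 3 and 0 between. At the high dose 11 were under 1, 11 between 1 and 3 and 6 over 3. The member with the second highest score, ENSRNOG00000019050.4, had the same kind of spread, with values under 0.1 CPM in 12 of 27 vehicle, 11 of 28 low-dose and 7 of 28 high-dose livers. It was over 5 CPM in 5, 13 and 11 livers of vehicle, low and high dose, and reached 82.2 CPM in low-dose male 4 of cohort C. Its score was positive in 2 of 4 cohorts, with 2.70 in cohort C and -0.65 in cohort A.

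The first member by score was of the other kind. ENSRNOG00000010797.5 had 1.03 to 6.94 CPM in vehicle (median 2.54), 1.21 to 12.9 at the low dose (median 6.97) and 0.21 to 7.402 at the high dose (median 1.99). Of 28 low-dose males 26 lay above the vehicle median and 27 above the high-dose median, no male held more than 6.96% of the total, and the score was between 0.82 and 1.39 in the 4 cohorts. Tymp, thymidine phosphorylase, was similarly even at a much higher level, with 39.0 to 259 CPM in vehicle (median 122), 85.6 to 267 at the low dose (median 166) and 27.1 to 277 at the high dose (median 104). Its low-dose mean of 172 ± 47.4 CPM (SD, n = 28) stood beside 124 ± 45.6 in vehicle (n = 27) and 118 ± 63.1 at the high dose (n = 28), and its score was positive in all 4 cohorts and on all 4 dates. Akap5, an anchor of protein kinase A, had low-dose values of 2.02 to 15.8 CPM (median 5.89) beside medians of 4.64 in vehicle and 3.29 at the high dose, and scores of 0.48 to 0.61 in the 4 cohorts.

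**Figure D2:**
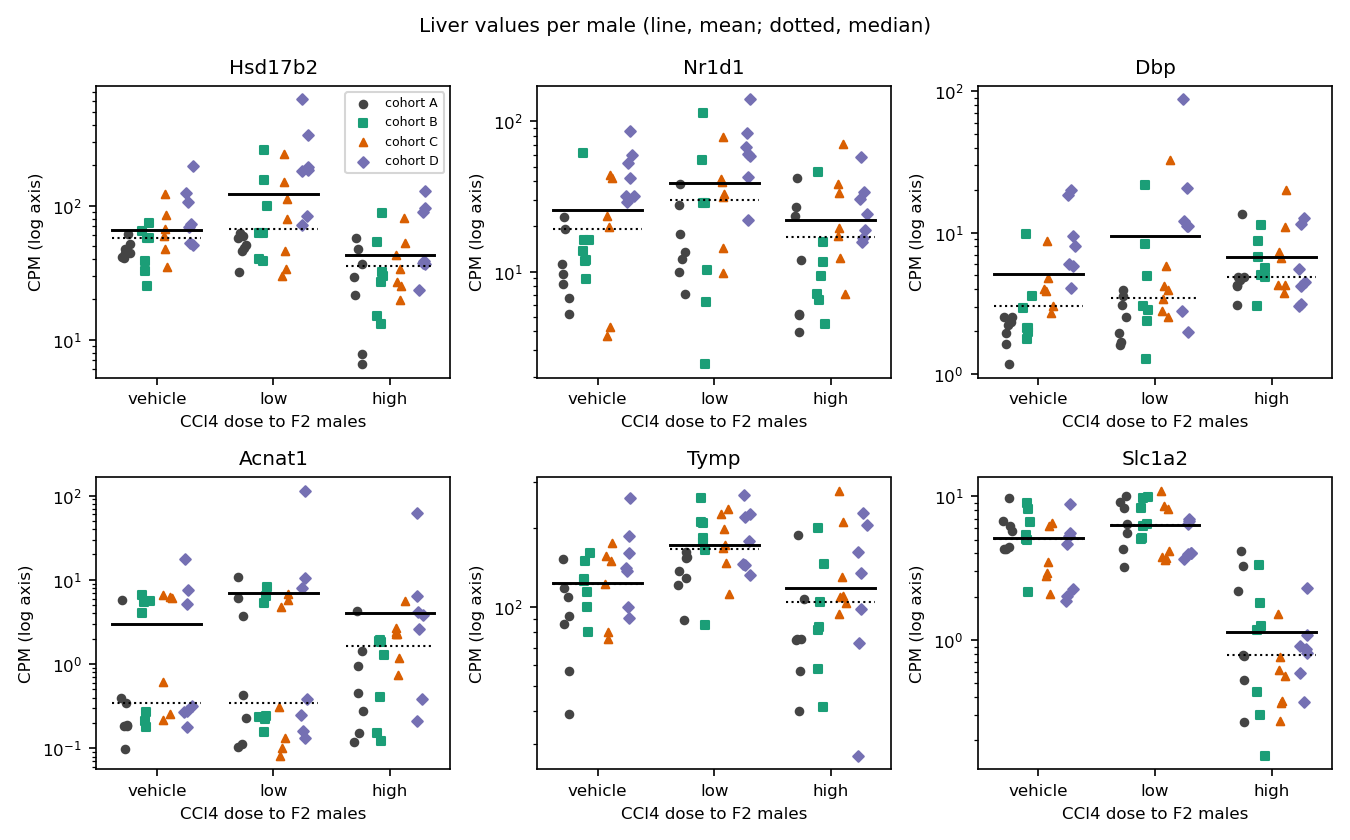
CPM in each liver (log axis) of 6 named members at the 3 F2 doses, with 1 point per male, coloured by cohort, the mean as a line and the median as a dotted line. The low-dose means of Dbp and Acnat1 lie above their medians, with the highest values in males 1 (87.9 CPM) and 9 (114 CPM) of cohort D, Tymp lay higher in most low-dose males, and Slc1a2 was low at the high dose.

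In some members the high-dose mean stood apart more than the low-dose mean. Slc1a2, a glutamate transporter of the hepatocytes next to the central vein, had 5.09 ± 2.24 CPM in vehicle (SD, n = 27), 6.29 ± 2.36 at the low dose (n = 28) and 1.14 ± 1.04 at the high dose (n = 28), and all 28 low-dose males lay above the high-dose median but 17 above the vehicle median. Edar, the receptor of ectodysplasin, had 9.53, 10.9 and 2.52 mean CPM, and Avpr1a, the hepatic vasopressin receptor, 80.2, 91.7 and 38.3. The lowest ratio of high dose to vehicle was that of ENSRNOG00000051081.1, with 15.3, 17.5 and 1.83 mean CPM, a low-dose to high-dose ratio of 3.25 on the log2 scale and a count of 0 in every kidney library. Of other pericentral genes with an identifier, Cyp1a2 had means in falling order of dose (435, 378 and 231 mean CPM) and Glul was lowest at the low dose (278, 149 and 342).

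Rtp4 and Slfn4, both known as interferon-induced genes, had a higher mean CPM than vehicle at both doses. On the TMM scale the log2 ratios of low dose to vehicle and to high dose were 0.36 and 0.72 for Rtp4 and 0.84 and 0.82 for Slfn4. On that scale the high-dose mean thus lay below vehicle for Rtp4 and close to it for Slfn4. Slfn4 had 24.8 ± 7.88 CPM in vehicle (SD, n = 27), 51.2 ± 31.2 at the low dose (n = 28) and 43.2 ± 51.4 at the high dose (n = 28), and its high-dose median of 23.7 CPM was close to that of vehicle (23.8), below 43.3 at the low dose. High-dose values reached 248 CPM. Rtp4 had means of 27.4, 40.4 and 33.8 CPM and medians of 25.7, 39.5 and 29.9. Neither is on the list of interferon response genes, of which 1 of 27 had an identifier, Cxcl11, with 13.77, 13.99 and 12.70 mean CPM. The 6 macrophage genes with an identifier, among them Cd163 (41.9, 49.4 and 63.2 mean CPM) and Adgre1 (17.9, 20.4 and 35.3), were all highest at the high dose on the CPM scale. Their log2 ratios of low to high dose ran from -1.98 to -0.26, beside -0.36 in the median gene. The order of Cd163 (-0.36) and Cd5l (-0.26) can therefore depend on scale. The part of these genes in the members' values was not tested. In vehicle, low and high dose, the Notch ligand Dll1 had 6.79, 8.74 and 6.81 mean CPM, the cell cycle inhibitor Rb1 13.5, 17.4 and 14.3, the metalloprotease Adamts7 16.1, 20.6 and 12.5, Plekhg5 13.97, 16.6 and 12.7, and Stard13 47.2, 55.3 and 41.2. The highest level among the members was 3085 mean CPM at the low dose, in ENSRNOG00000030154.5, the lowest 5.87 and the median 33.3.

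Whether a positive score depended on 1 library was checked in every member. The highest low-dose library held a median of 6.15% of the low-dose total, where equal libraries would hold 3.57%, and more than 10% in 8 members. Without that library the score stayed above 0 in 98 members and above the lowest score of the choice in 63, and Acnat1 and Dbp were the 2 that fell below 0. By medians the score was above 0 in 97. The highest library was male 4 of cohort C in 13 members, and males 7, 1 and 2 of cohort D in 12, 9 and 7. In 0 members did all low-dose livers lie above all vehicle livers, beside 31 genes (0.335%) at 5 CPM or more, and in 0 members did they lie above all high-dose livers, beside 7 genes (0.0756%). The median member had 22 of 28 low-dose males above the vehicle median. The coefficient of variation between low-dose males had a median of 29.7% over the members and 17.8% over all genes at 5 CPM or more.

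The score was positive in cohorts A, B, C and D in 91, 87, 93 and 85 members, in all 4 in 62, and on all 4 necropsy dates in 67. These values were used by the rule, so each cohort was also left out of the choice. The 100 genes chosen from the other 3 cohorts were then measured in the cohort left out. Both ratios were above 1 in 76 of 100 genes in cohort A, 64 in B, 76 in C and 65 in D, where 8.54%, 7.07%, 14.7% and 9.66% of all genes at 5 CPM or more had both ratios above 1. The median scores fell from between 0.27 and 0.33 in the choosing cohorts to 0.18, 0.09, 0.22 and 0.06 in cohorts A, B, C and D. On the CPM scale the direction was thus found again in most genes and its size was smaller. Their median log2 ratio of low dose to vehicle was 0.26, 0.29, 0.31 and 0.23 in cohorts A to D, beside 0.18, 0.08, 0.15 and 0.14 over all genes at 5 CPM or more. That of low to high dose was 0.46, 0.27, 0.34 and 0.33, beside -0.39, -0.44, -0.25 and -0.35.

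**Figure D3:**
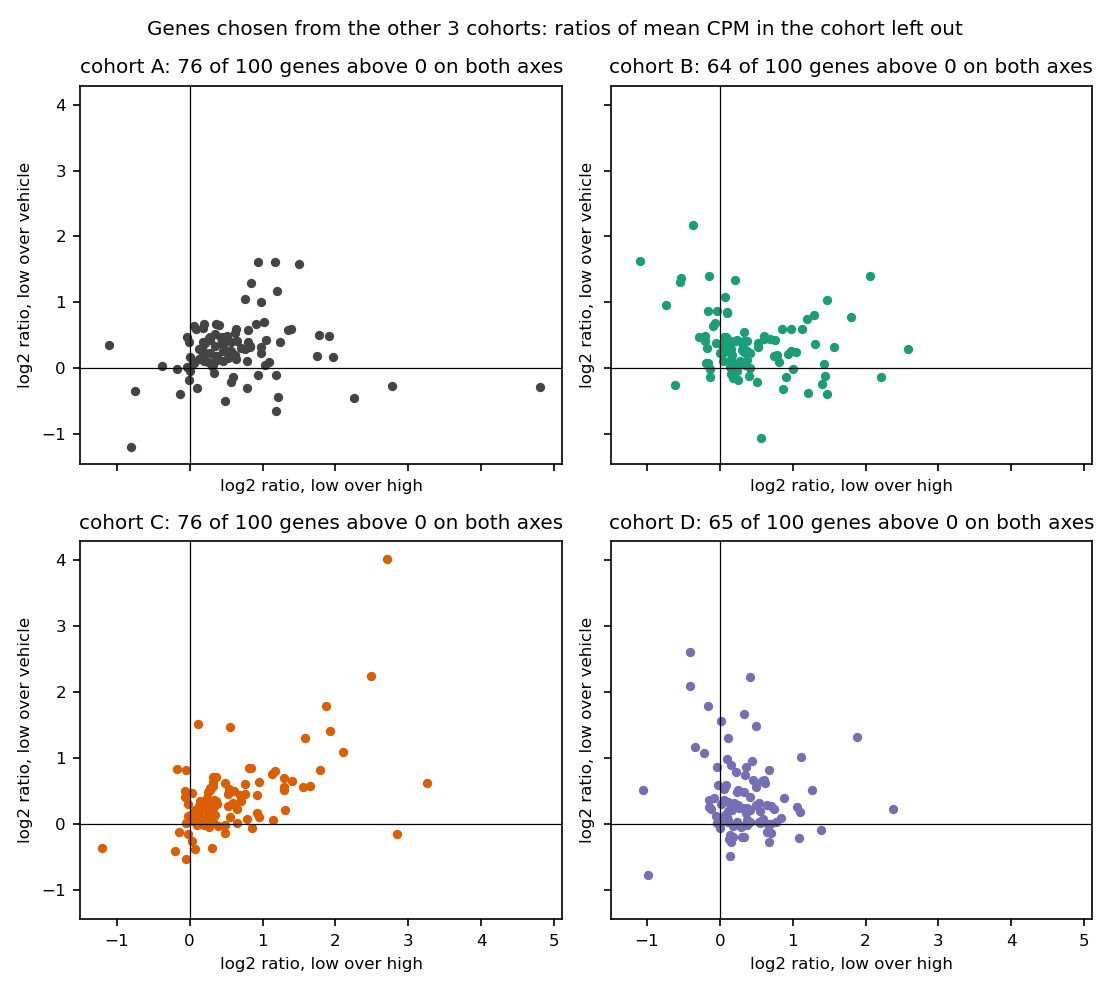
For each cohort, the 100 genes chosen from the other 3 cohorts, with the log2 ratio of mean CPM in the cohort left out of low to high dose (horizontal axis) and of low dose to vehicle (vertical axis), 1 point per gene. The upper right part, with both ratios above 0, holds 76, 64, 76 and 65 genes in cohorts A, B, C and D.

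Tested gene by gene within 1 cohort, few of them passed. With edgeR's quasi-likelihood test on TMM-scaled counts, an adjusted p under 0.1 and a log2 fold change over 1 against both vehicle and high dose were reached by 2 of 100 genes in cohort A (0.0778% of 17999 genes tested), 0 in B (0.0163%), 2 in C (0.137%) and 0 in D (0.0164%). Without the fold limit 2, 0, 4 and 3 genes passed, beside 0.122%, 0.0271%, 0.23% and 0.0438% of the genes tested. With the fold limit and a block for litter, the count fell in cohort C and rose in cohort D. Low over high dose with the fold limit was passed by 43, 29, 31 and 16 of 100 genes in cohorts A to D (4.73%, 5.23%, 3.42% and 2.45% of all genes), and low dose over vehicle by 2, 1, 4 and 6 (3.64%, 2.99%, 2.82% and 3.18%). The share over vehicle was below that of all genes in cohorts A and B and above it in cohorts C and D.

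The genes that passed in a cohort that had not chosen them were also members, a choice that used that cohort too. ENSRNOG00000010797.5 had 1.12 to 3.21 CPM in the 7 vehicle livers of cohort A, 3.46 to 8.70 at the low dose and 0.57 to 7.402 at the high dose, so that the low-dose and vehicle males did not overlap. The low dose exceeded vehicle by 1.41 ± 0.43 (SE, edgeR adjusted p = 0.066) and the high dose by 1.56 ± 0.43 (edgeR adjusted p = 0.0086) on the log2 scale. ENSRNOG00000033581.5 passed in cohort A with 2.93 ± 0.96, 7.19 ± 2.28 and 4.01 ± 2.02 CPM (SD, n = 7 each) in vehicle, low and high dose, and in cohort C against vehicle with the fold limit but against the high dose only without it. ENSRNOG00000001963.7 had 17.97 to 43.6 CPM in the vehicle livers of cohort C, 29.7 to 307 at the low dose and 7.68 to 41.9 at the high dose. Its low dose exceeded vehicle by 1.98 ± 0.43 (SE, edgeR adjusted p = 0.010) and the high dose by 2.83 ± 0.42 (edgeR adjusted p = 1.1e-04) on the log2 scale. The other gene that passed in cohort C, ENSRNOG00000019050.4, had low-dose values from 0 to 82.2 CPM there and adjusted p-values of 0.094 and 0.050 by edgeR.

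A difference between cohorts in the height of the peak, the low-dose level less the mean of vehicle and high dose, was tested over all 12 groups. By edgeR it was called in 0 of 100 members and in 0.0% of all genes tested, with an unadjusted p under 0.05 in 2 members and 2.63% of all genes, and DESeq2 called 0 members also. The peak of the members was not shown to depend on the ancestors.

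The members were next compared by the treatment of the F0 grandsire. In a model of F0, F1 and F2 treatment over the 83 livers, 22 of 100 members differed by F0 treatment (edgeR, adjusted p under 0.1). Of these, 20 were higher and 2 lower in males with a treated F0 grandsire. Of all genes tested 8.93% were called, 5.14% higher and 3.79% lower. The model had no block for litter or grandsire, so descendants of the same grandsire counted as independent. All genes tested include weakly expressed ones, while every member had a low-dose mean of 5 CPM or more. The share called among the genes at 5 CPM or more was not taken, so 8.93% is not a matched background. The F0 estimate was above 0 in 79 members, with a median of 0.10 on the log2 scale beside 0.02 over all genes. The 22 called members all had a symbol, since the names come from the study's F0 list, and the 77 members without a symbol included 0 called and 58 with an estimate above 0 (median 0.08). Without necropsy date 2 or 4, 13 members were called in each case, beside 1362 and 683 of all genes in place of 1697. With the 28 low-dose males alone, 42 of 17938 genes were called and 1 of them was a member, which is not among the 22. This was ENSRNOG00000008842.4, named after its values were seen, which was lower by an estimate of -0.63 ± 0.15 on the log2 scale (SE, edgeR adjusted p = 0.089). Slfn4, the 1 member with a symbol that is not among the 22, had an adjusted p of 0.54 by edgeR over all livers, and of 0.074 to 0.84 over the alternatives.

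After Acnat1, the largest F0 estimates were those of the clock genes Dbp and Nr1d1 and of Hsd17b2, which varied with them. Dbp was higher by 1.15 ± 0.24 on the log2 scale (SE, edgeR adjusted p = 8.7e-04). In vehicle, low and high dose its means were 2.76, 4.49 and 6.07 CPM in cohorts A and B and 7.61, 14.6 and 7.27 in cohorts C and D. The low-dose mean of cohorts C and D (SD 22.9, n = 14) included male 1 of cohort D at 87.9 CPM, with the next value of its group at 20.8. Nr1d1 was higher by 0.97 ± 0.23 (adjusted p = 0.0050, edgeR), with 26.6 against 51.6 CPM at the low dose and 15.7 against 28.3 at the high dose. Hsd17b2 was higher by 0.82 ± 0.19 (adjusted p = 0.0032, edgeR), with 48.6, 76.5 and 33.1 against 83.7, 168 and 52.2 CPM. Acnat1 had an estimate of 1.58 ± 0.50 (edgeR adjusted p = 0.045). Its low-dose mean was 3.01 ± 3.68 CPM in cohorts A and B and 10.8 ± 29.9 in cohorts C and D (SD, n = 14 each). The latter included male 9 of cohort D at 114 CPM. The call of Acnat1 was lost with the necropsy date as a block (1.32, edgeR adjusted p = 0.10) and without date 2 (1.58, edgeR adjusted p = 0.12). It was also lost without date 4, where the estimate was 0.89 (edgeR adjusted p = 0.49). The call of Hsd17b2 was lost without date 1 (0.59, edgeR adjusted p = 0.11). Adamts7 had the smallest adjusted p of the members, with 0.60 ± 0.11 (edgeR adjusted p = 1.8e-04) and 12.7, 16.96 and 10.2 against 19.8, 24.3 and 14.9 CPM, followed by Plekhg5 (0.39 ± 0.08), Rusc2 (0.47 ± 0.09) and Stard13 (0.34 ± 0.07). Slc1a2 was lower, with -0.55 ± 0.17 (adjusted p = 0.037, edgeR) and 5.91, 6.98 and 1.46 against 4.20, 5.61 and 0.81 CPM, and so was Avpr1a with -0.34 ± 0.12 (adjusted p = 0.068, edgeR). The call of Slc1a2 was lost without date 1 (-0.47, edgeR adjusted p = 0.22) or date 2 (-0.43, edgeR adjusted p = 0.23). That of Avpr1a was lost with the date block (-0.30, edgeR adjusted p = 0.10), without date 2 (-0.20, edgeR adjusted p = 0.50) and without date 4 (-0.29, edgeR adjusted p = 0.33).

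**Figure D4:**
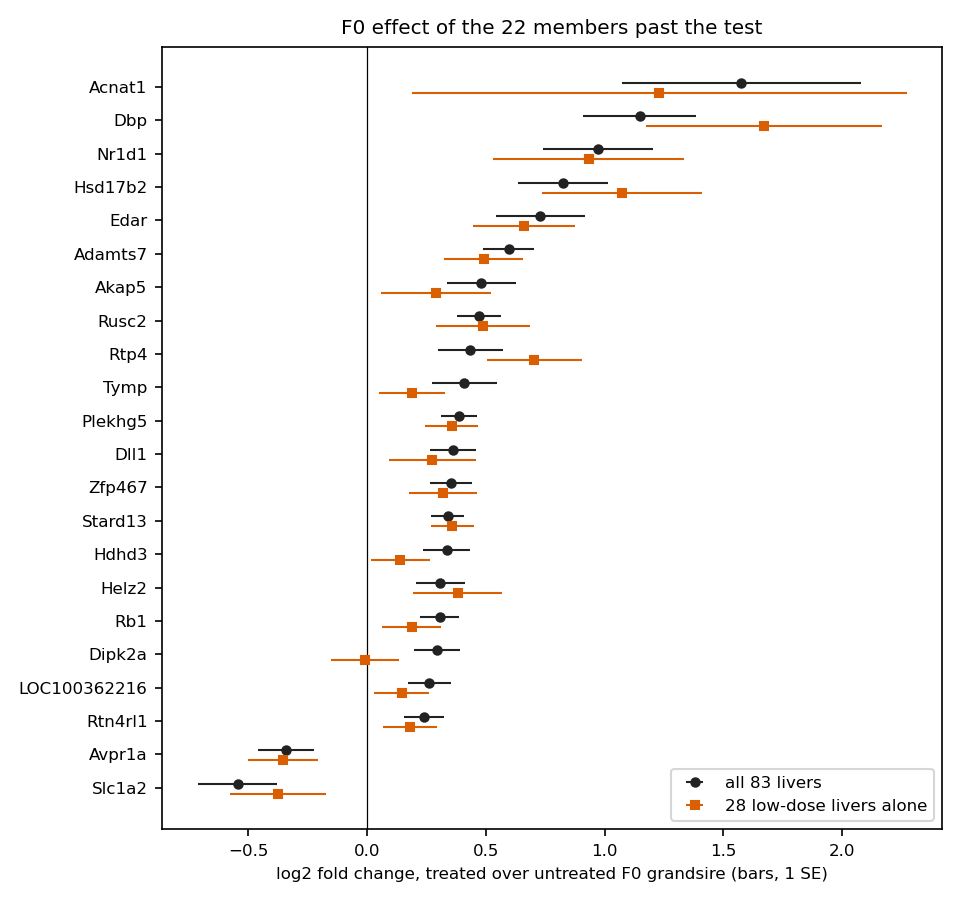
Log2 fold change of males with a treated over those with an untreated F0 grandsire for the 22 members called, from all 83 livers (circles) and from the 28 low-dose livers alone (squares), with bars of 1 SE. The 2 members below 0 are Avpr1a and Slc1a2, the largest estimate is that of Acnat1, and Dipk2a is at -0.0085 in the low-dose males.

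Treatment of the F1 sire was called in 0 of 100 members (0.2% of genes, edgeR), where 15 members and 10.3% of all genes had an unadjusted p under 0.05 and DESeq2 called 0 members. The F1 estimate was above 0 in 75 members, with a median of 0.059 on the log2 scale beside 0.0043 over all genes. The F1 estimates of Hsd17b2 and Dbp were 0.61 and 0.73 on the log2 scale. In the vehicle kidneys 96 members could be tested, and 0 had an F0 effect (0.0109% of 18374 genes, edgeR) or an F1 effect (0.0% of genes, edgeR), with an unadjusted p under 0.05 in 12 and 8 members, beside 8.70% and 6.67% of all genes. DESeq2 called 1 member for F0, beside 77 of all 18374 genes, and 0 members for F1. Kidney means of Nr1d1 were 29.5 ± 8.68, 37.2 ± 19.2, 42.6 ± 23.5 and 68.5 ± 19.4 CPM in cohorts A, B, C and D (SD, n = 7, 7, 6 and 7), and of Dbp 14.5, 18.9, 19.3 and 28.9, in the same order as in the vehicle livers. Their F0 estimates in kidney were 0.69 ± 0.22 and 0.50 ± 0.15 on the log2 scale (SE, edgeR adjusted p = 0.35 and 0.33). Kidney levels were under 1 CPM in 14 members and 5 CPM or more in 68.

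Necropsy date was called in 6 of 100 members (edgeR, cohort and dose in the model), where 7.16% of all genes were called. The smallest adjusted p was that of Nr1d1 (0.021, edgeR), with 36.0 ± 30.1, 20.8 ± 19.6, 18.5 ± 15.8 and 35.0 ± 27.4 CPM on dates 1 to 4 (SD, n = 24, 23, 12 and 24). Dll1 was highest on date 3 (10.1 ± 4.10 CPM, n = 12) and had 6.64 to 7.22 CPM on the others, and Rtn4rl1 ran from 13.8 to 18.3 CPM. The other 3 had no symbol.

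Over the 28 low-dose males, after the mean of each cohort was taken off, the members did not vary as 1 group. The median correlation of log2 CPM was 0.09 over 4950 pairs of members and 0.11 over all pairs of genes at 5 CPM or more, and r exceeded 0.5 in 7.37% of member pairs and 12.7% of all pairs. Members joined at an average r of 0.5 or more made 10 groups of 3 or more. The largest held 19 members, among them Rtp4 and Slfn4, with a mean r of 0.72, was highest in male 4 of cohort C (0.81 above its cohort on the log2 scale) and male 2 of cohort D (0.76), and lowest in male 5 of cohort B (-0.93). A group of 7 held Helz2 and Stard13, and one of 5 held Plekhg5, Rusc2 and Zfp467 (mean r 0.67). Hsd17b2 varied with Dbp (r = 0.85) and Nr1d1 (r = 0.70), and Dbp with Nr1d1 (r = 0.71), in a group of 4 that was highest in male 9 of cohort B (1.68), male 2 of cohort C (1.61) and male 1 of cohort D. Akap5 and Rb1 had r = 0.77. The points share library, date and litter, and the groups were formed from these same values.

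**Figure D5:**
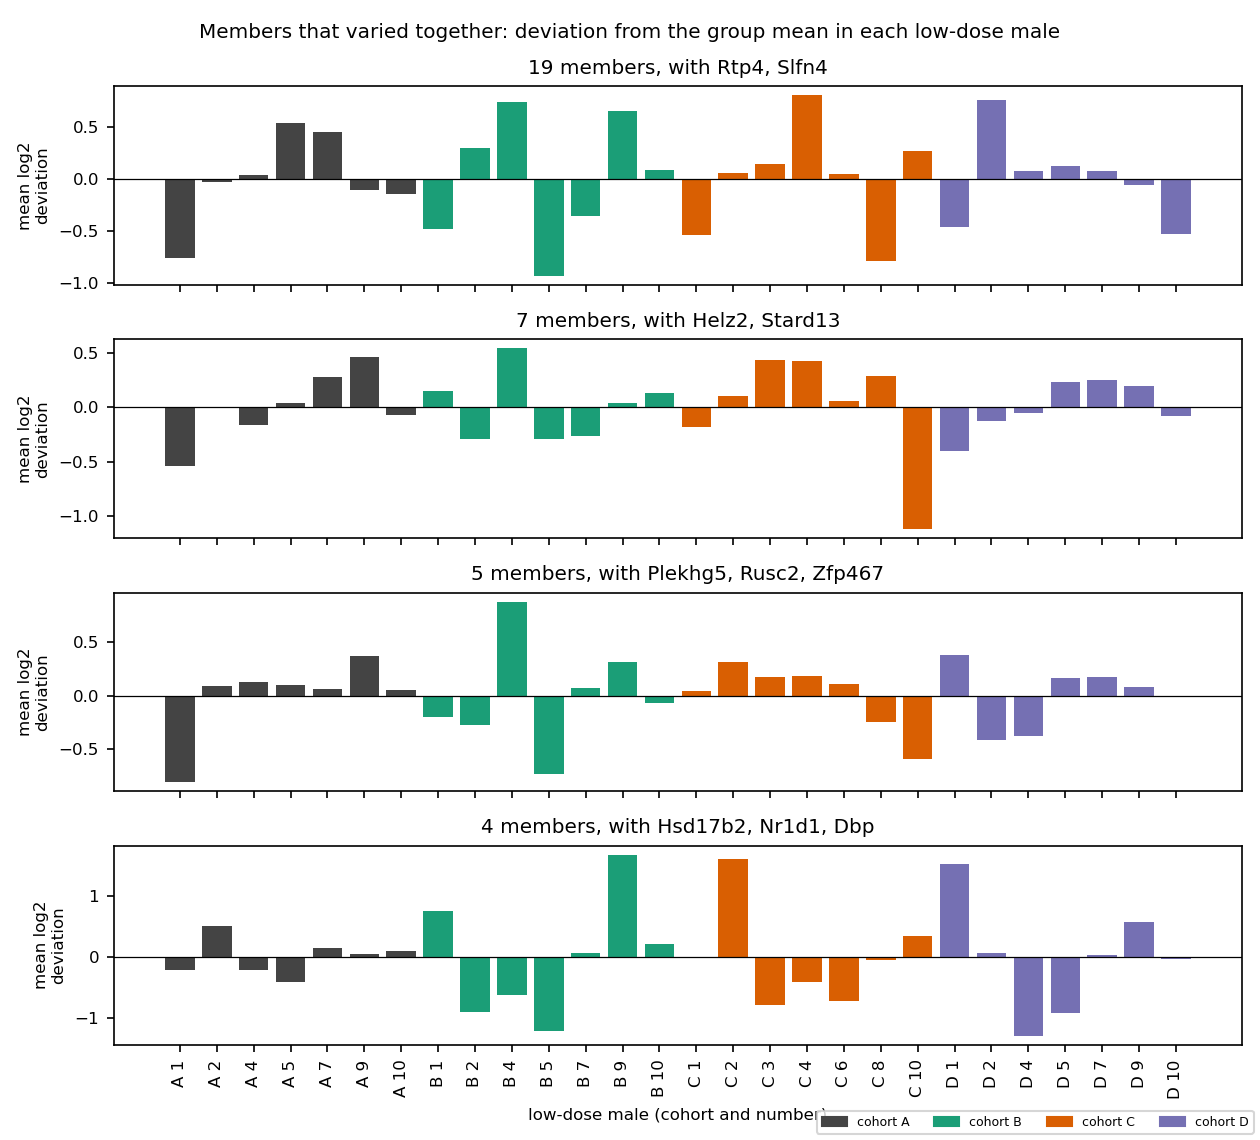
Mean log2 CPM deviation from the cohort's low-dose mean in each of the 28 low-dose males (bars, coloured by cohort). The members that varied together are shown for the groups of 19, 7 and 5 members and for 1 of several groups of 4. The group of 19 with Rtp4 and Slfn4 is highest in male 4 of cohort C and lowest in male 5 of cohort B, and the group of 4 with Hsd17b2, Nr1d1 and Dbp is highest in male 9 of cohort B, male 2 of cohort C and male 1 of cohort D, so the groups rank the males differently.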

How the data were processed

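Stranded mRNA libraries of 83 livers and 27 kidneys had been quantified by the authors with Salmon 0.14.0 against Ensembl rat transcripts and summed per gene. The deposited values are rounded estimated counts without normalization, and the deposited average transcript lengths served as offsets in 1 alternative. Groups followed the sample labels, and necropsy dates and litters the study's supplement. CPM used library totals. Tests covered genes whose counts summed to more than 10 in 1 or more groups, with edgeR 4.0.16 (quasi-likelihood, TMM) in R 4.3.3, two-sided, with Benjamini-Hochberg adjustment over all genes tested, and tests were checked on simulated data. Alternatives were DESeq2 1.42.0, its size factors, length offsets, other filters and thresholds, a block for date and each date left out. The low-dose males alone were a further alternative. A litter block was used only in the tests within a left-out cohort. Effects of dose were tested only in a cohort left out when the 100 genes were chosen from the other cohorts, and not over all livers that had selected the members. The members and lists were chosen with earlier results of these data known. Members were named by rule: the highest 15 scores, the highest 10 low-dose means, list genes, up to 5 called members a test, those nearest the limit and those whose peak was lost without 1 library. Members without a symbol are given mostly by counts, and the other named members were added because they had a symbol. Depth was 21961746 counts or more per library, and a count of 0 allows up to 3 counts, for counting error only. Each replicate was 1 male.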

Additional observations from a re-analysis of the deposited data

Results flagged for a closer look

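Single low-dose males stood apart from the other 6 of their group, by Dixon's test at 95%, in 15 of 100 groups examined (the 23 members with a symbol and the first 2 members, in 4 cohorts), and chance flags about 1 in 20 groups. The rule chose the members by the mean of these same values, which favours genes with a single high male, so nothing is read from this number. Dbp had such a male in 3 cohorts, with 21.8 CPM in male 9 of cohort B (next 8.30), 32.9 in male 2 of cohort C (next 5.80) and 87.9 in male 1 of cohort D (next 20.8). Acnat1 reached 114 CPM in male 9 of cohort D (next 10.4), and ENSRNOG00000019050.4 reached 72.2 CPM in male 4 of cohort D (next 9.27). Male 4 of cohort B was high in Plekhg5 (27.9 CPM) and Stard13 (70.1), and male 1 of cohort A was low in Plekhg5 (7.25) and Rusc2 (5.22). Male 10 of cohort C was low in Stard13 (42.7 CPM). High values were also those of Akap5 in male 9 of cohort A (9.78 CPM), Dll1 in male 6 of cohort C (17.7), Adamts7 in male 7 of cohort D (42.4), Hdhd3 in male 4 of cohort A (63.0) and Edar in male 7 of cohort A (13.1).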

How the results depend on the processing

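The choice of members depended on scale: 43 of 100 were chosen again with TMM-scaled library sizes and 61 with medians, and 67 to 95 under the other alternatives. The F0 count in liver of 22 ranged from 13 to 21 over leaving out 1 date, while the count over all genes went from 1697 to between 683 and 1362. It was 1 in the low-dose males alone, beside 42 of all genes, where Dipk2a reversed to -0.0085 and the other 21 had the sign of the fit that included these males, with larger estimates in Dbp (1.67), Hsd17b2 (1.07) and Rtp4 (0.70) among others. With the necropsy date as a block, which pairs males of different groups by day, it was 21, of which 20 were among the 22, and no other count of called members changed under that block. The date count of 6 was 3 at an adjusted p under 0.05, and DESeq2 called 1 member for F0 in kidney in place of 0. The counts of genes that peaked in a left-out cohort are small. In cohort A the 2 became 1 at an adjusted p under 0.05 and 1 with transcript lengths as offsets. In B the 0 became 1 with DESeq2. In C the 2 became 1 at an adjusted p under 0.05, 4 with no minimum fold, 1 with no filter and 1 with a litter block, and in D the 0 became 3 with no minimum fold and 1 with a litter block. The cause was not tested. The other 80 values stayed within 1.5 times. Males of related litters, unknown necropsy time, 7 or fewer males a group and names for 23 of 100 members limit these results.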
